A study of Mus musculus with 4 samples.

Results

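The heat shock genes studied here encode chaperones of the cytosol and the mitochondria together with their master regulator. They were chosen by name, as the probe sets that carry 1 gene symbol out of a list of 10. Of these 10 genes, 8 had such a probe set (Hspa8, Hsph1, Dnaja1, Dnajb1, Hsp90aa1, Hspa9, Hspd1 and Hspe1), out of 18193 genes named in this way. They were read by 24 probe sets. The other 2, Hsf1 and Hsp90ab1, were not analysed here. Total RNA of 4 samples was hybridised to Affymetrix expression arrays, 1 array per sample. The cells of 2 samples were G-MDSC (granulocytic myeloid-derived suppressor cells), a granulocyte-like population that builds up in mice with tumours and can hold back T cell responses. They were selected for Ly6G on microbeads from spleens taken 3.5 weeks after EL4 lymphoma cells had been given under the skin. The other 2 samples were neutrophils from fluid of the peritoneum, drawn there by 2 injections of 1.5 ml of 12% casein, a milk protein, given 16 h apart. They were collected 3 h after the second injection, depleted of F4/80-positive cells and selected for Ly6G. All mice were female C57BL/6 animals, whose age and number per sample are not given in the sources used here. Nothing in the labels says whether the samples of a group were separate mice. The p-values therefore rest on spread within these samples, and that spread may be technical. For each gene, limma also draws that spread towards a trend over all genes. Cell kind, tissue, tumour, casein and sorting steps went together in every array and cannot be told apart.

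Heat shock proteins keep other proteins folded. Proteins of the Hsp70 family bind unfolded stretches in a cycle driven by ATP. J proteins such as Dnaja1 and Dnajb1 bring them their substrates and start the cycle, and Hsp110 proteins such as Hsph1 release the spent nucleotide. Hsp90 takes over partly folded clients, many of them kinases and receptors. In the mitochondrial matrix Hspa9 draws proteins in through the import pore, and the barrel of Hspd1 with its lid Hspe1 folds them. When unfolded proteins build up, heat shock factor 1 binds heat shock elements, which are repeats of GAA and its complement TTC, and switches many of these genes on.

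Promoter sequences show which of the members carry such repeats near their start sites. RefSeq windows on assembly GRCm38.p6, from 250 bases before to 50 bases after a start, were matched by symbol for 5 of the members, in 10 windows. They were searched on both strands for GAANNTTC, for TTCNNGAA and for the 3-unit form GAANNTTCNNGAA, which contains one copy of each of the shorter forms. Of the 5 genes, 4 had a window with GAANNTTC or TTCNNGAA, and 5 of the 10 windows did. Among all 32851 windows 15.1% did, and 17.0% of all 27025 genes had such a window. The 3-unit form was in 4 of the 10 windows and in 0.603% of all windows. The windows of Hspd1 and Hspe1 overlap, since these genes are read away from each other, so their matches are the same bases. The windows of Hsph1 overlap too, and their matches are likewise the same bases. The members were listed as heat shock factor 1 and its chaperone targets, so these shares are not an independent finding. A match is a description of letters, not a binding site. The stretches shown are the one that lies between the starts of Hspd1 and Hspe1 (chr1:55087933-55088147, + strand), the bases before the Hsph1 start (chr5:149636337-149636436, - strand), a short site after that start (chr5:149636287-149636306, - strand), bases before the first Dnaja1 start (chr4:40722308-40722407, + strand) and, for comparison, bases before the first Dnajb1 start (chr8:83608075-83608174, + strand). Capitals mark the matches.
Hspd1-Hspe1: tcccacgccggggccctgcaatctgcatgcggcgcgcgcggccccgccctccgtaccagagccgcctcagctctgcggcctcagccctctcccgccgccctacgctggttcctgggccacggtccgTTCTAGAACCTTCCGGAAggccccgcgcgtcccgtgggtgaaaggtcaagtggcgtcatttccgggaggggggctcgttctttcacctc
Hsph1 upstream: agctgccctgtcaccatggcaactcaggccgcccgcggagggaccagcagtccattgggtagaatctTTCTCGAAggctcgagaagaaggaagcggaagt
Hsph1 downstream: tgcagaTTCTGGAAAGTTCt
Dnaja1: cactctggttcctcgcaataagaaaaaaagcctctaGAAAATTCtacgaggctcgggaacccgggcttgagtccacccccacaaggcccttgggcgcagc
Dnajb1: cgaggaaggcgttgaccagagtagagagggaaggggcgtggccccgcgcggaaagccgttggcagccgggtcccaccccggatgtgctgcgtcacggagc

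The run of 18 capitals between Hspd1 and Hspe1 holds 2 overlapping 3-unit matches, and the site after the Hsph1 start holds 1. Dnaja1 had a single GAANNTTC. Neither window of Dnajb1 held any of these forms, which says only that the letters are not in those windows.

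Neutrophil markers were bright in all 4 arrays. The lowest of 11 tested markers had a signal of 5282 and 4814 in the G-MDSC arrays and 1277 and 600.4 in the neutrophil arrays. The groups were not alike in these markers. Of the 11, 4 were higher in G-MDSC (Camp 34.3-fold, Ltf 20.8-fold, Ngp 5.83-fold and Cxcr2 2.36-fold, by limma), against 8.3% of all genes. The other 7 did not pass. The median log2 difference of the 11 was 0.77, against -0.18 over all genes. Camp, Ltf and Ngp are genes of secondary granules, which are made while neutrophils mature. Their part in the heat shock differences was not tested. Among low signals neutrophils replicate 2 differed from the other arrays. Its 40th percentile was 132.7, against 45.7 to 52.6 elsewhere. Values below are signals on a linear scale as deposited by the authors. Differences are on the scale of log2(signal + 16), G-MDSC minus neutrophils, and were tested by limma over 13139 genes with Benjamini-Hochberg adjustment. Each SE given with them is the moderated one of limma, drawn towards an intensity trend over all genes. It is not the SE of the 2 against 2 values of that gene alone, which was 0.47 for Hspe1 and 0.19 for Dnaja1. The median gene stood at -0.18 on that scale.

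Most of the heat shock genes were lower in G-MDSC, and Dnajb1 was the exception. By 1 probe set per gene, 5 of the 8 fell (Hspa8, Hsph1, Hspa9, Hspd1 and Hspe1), 1 rose (Dnajb1) and 2 did not pass the test (Dnaja1 and Hsp90aa1). Over all genes tested, 8.05% were called lower and 8.3% higher, 16.4% in all. Without G-MDSC replicate 2, 2 of the 8 were called lower and 0 higher, and without G-MDSC replicate 1, 4 and 0. The median difference of the 8 was -1.43, against -0.18 over all genes. The arrays of the groups did not overlap for any of the 8, with 7 lower and 1 higher in G-MDSC. Over all genes 59.5% were separate, 32.2% lower and 27.3% higher. Both groups are sorted populations measured in bulk, so fewer cells of a type and less RNA per cell cannot be told apart.

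**Figure D1:**
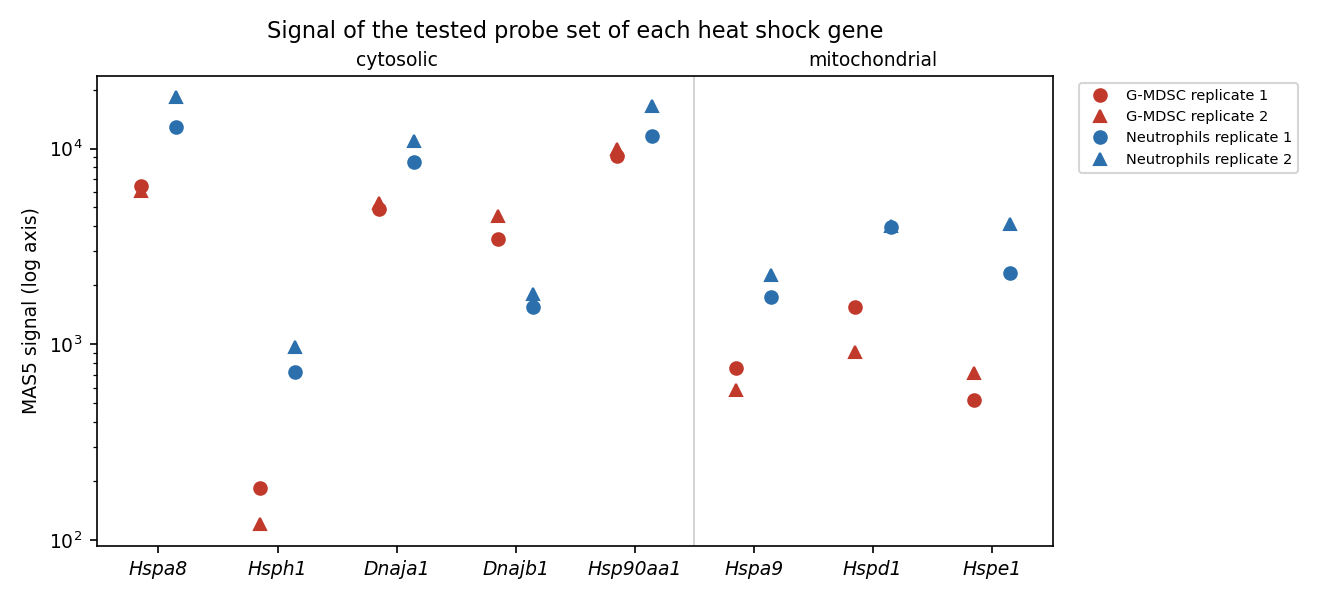
MAS5 signal (log axis) of the probe set that represents each heat shock gene, with 1 point per array, G-MDSC in red and neutrophils in blue, circles for replicate 1 and triangles for replicate 2. The red points lie below the blue ones for 7 genes and above them for Dnajb1; heights are not comparable between genes, since probe sets differ in response.

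Among the cytosolic Hsp70 genes, the constitutive chaperone Hspa8 and its Hsp110 partner Hsph1 both fell in G-MDSC. By probe set 1420623_x_at the Hspa8 signal was 6453 and 6035 (G-MDSC) against 12918 and 18311 (neutrophils). Both G-MDSC arrays lay below both neutrophil arrays, and the log2 difference was -1.30 ± 0.31 (SE of 2 against 2 arrays; limma adjusted p = 0.0154), a 2.46-fold lower level. Its call was lost without G-MDSC replicate 1 (adjusted p = 0.0885), without G-MDSC replicate 2 (0.131) and with probe sets without a suffix only (0.104). The Hsph1 signal, by probe set 1425993_a_at, was 184.8 and 120.3 (G-MDSC) against 724.6 and 965.3 (neutrophils), a log2 difference of -2.37 ± 0.38 (limma adjusted p = 0.00196) and a 5.15-fold lower level. It passed the threshold with each of the 4 arrays left out in turn. Without moderation of the variance, and with a floor for low signals, neither Hspa8 nor Hsph1 passed. Hspa8 also lost its call with median scaling and without the intensity trend.

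The probe sets of Hspa8 differed in size but not in direction. The one with the strongest contrast, 1455789_x_at, read 3514 and 4211 (G-MDSC) against 15740 and 22820 (neutrophils), a log2 difference of -2.30 ± 0.32. The probe set 1420622_a_at gave -1.91 ± 0.44 and the dim 1431182_at gave -1.20 ± 0.45, which did not pass (limma adjusted p = 0.149 over all kept probe sets). With the median of its probe sets Hspa8 was at -1.95. Probe sets whose names end in x_at can bind transcripts of related sequence, and Hspa8 belongs to a family of near-identical genes and copies, so its signals are uncertain in that respect. The second Hsph1 probe set, 1423566_a_at, read 39.2 and 37.9 (G-MDSC), each under its array's 40th percentile, against 230.6 and 489.9 (neutrophils). Taking that percentile as a bound, G-MDSC were at least 5.43-fold lower, or at least 2.37-fold with the highest percentile of the 4 arrays as a common floor.

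Of the J proteins among the members, Dnajb1 passed the test and Dnaja1 did not. Dnajb1, a J protein that responds strongly to heat, rose in G-MDSC. By probe set 1416756_at its signal was 3450 and 4538 (G-MDSC) against 1548 and 1816 (neutrophils). Both G-MDSC arrays were the higher ones, by 1.23 ± 0.31 on the log2 scale (SE of 2 against 2 arrays; limma adjusted p = 0.0192) or 2.35-fold. This call was lost without G-MDSC replicate 1 (adjusted p = 0.0636), without G-MDSC replicate 2 (0.268) and under quantile normalization (0.0534). The Dnajb1 call was also lost with median scaling, without the intensity trend, without moderation of the variance and with a floor for low signals. The second Dnajb1 probe set, 1416755_at, was also higher in both G-MDSC arrays, at 2266 and 2110 against 1727 and 1038. Its difference of 0.70 ± 0.35 did not pass (limma adjusted p = 0.272 over all kept probe sets).

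Dnaja1, a J protein anchored to membranes by a lipid tail and a partner of Hspa8, did not pass the test. By probe set 1416288_at its signal was 4924 and 5263 (G-MDSC) against 8514 and 10925 (neutrophils), so the groups did not overlap. The log2 difference was -0.92 ± 0.30 (SE of 2 against 2 arrays; limma adjusted p = 0.059). Its other probe sets gave -0.70 ± 0.30 and -0.53 ± 0.29, and the groups were separate in both. The gene passed without neutrophils replicate 1 (adjusted p = 0.00189), with quantile normalization (0.0446) and with the replicate number as a block (0.00981).

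Hsp90aa1, the stress-inducible form of cytosolic Hsp90, did not pass the test. By probe set 1438902_a_at its signal was 9149 and 9984 (G-MDSC) against 11647 and 16499 (neutrophils). The log2 difference was -0.54 ± 0.31 (SE of 2 against 2 arrays; limma adjusted p = 0.28), or 0.022 with median scaling. It passed without neutrophils replicate 1 (-0.79, adjusted p = 0.0312). Of its 5 probe sets 4 were kept, and 0 of these passed. For 1426645_at the groups overlapped, with 1820 and 4202 (G-MDSC) against 3240 and 7171 (neutrophils). The dim 1433251_at was the only kept probe set of the gene with a higher mean in G-MDSC, at 49.1 and 61.6 against 31.1 and 28.4, and both neutrophil values lay below the 40th percentile of their arrays.

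All 3 mitochondrial chaperones fell in G-MDSC. Hspa9, the matrix Hsp70, by 1418504_at, read 760.2 and 581.2 (G-MDSC) against 1741 and 2267 (neutrophils). Its log2 difference was -1.56 ± 0.32 (SE of 2 against 2 arrays; limma adjusted p = 0.00792), or 2.94-fold lower. Hspd1, which forms the folding barrel, by 1426351_at, read 1552 and 914.3 (G-MDSC) against 3994 and 4008 (neutrophils). The neutrophil arrays were almost equal, and the difference was -1.73 ± 0.33 (limma adjusted p = 0.00533), or 3.33-fold lower. Hspe1, the lid of the barrel, by 1450668_s_at, read 518.2 and 713.3 (G-MDSC) against 2318 and 4099 (neutrophils). It was 4.97-fold lower, with a log2 difference of -2.31 ± 0.36 (limma adjusted p = 0.0016). All 3 calls were lost with median scaling, without the intensity trend, without moderation of the variance and with a floor for low signals. The calls of Hspa9 and Hspd1 were lost without G-MDSC replicate 2 (adjusted p = 0.0972 and 0.0818), while Hspe1 passed with each array left out.

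Within the mitochondrial group, the probe sets of a gene lay close together. The second Hspa9 probe set, 1418503_at, gave -1.66 ± 0.35, and 1447728_x_at gave -1.51 ± 0.46 without passing (limma adjusted p = 0.086 over all kept probe sets). The second Hspe1 probe set, 1422579_at, read 312.4 and 292.4 (G-MDSC) against 935.7 and 1613 (neutrophils), a difference of -1.97 ± 0.38. Hspd1 had a single probe set. Hspd1 and Hspe1, the pair that shares the stretch printed above, differed by -1.35 and -2.13 on the log2 scale between the replicate 1 arrays and by -2.11 and -2.50 between the replicate 2 arrays. These are values of 4 arrays, and no test was run of the difference between them.

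Counted by probe set, the picture was the same in direction. Of 24 probe sets 21 passed the filter on low signals, and 3 (2 of Hspa9 and 1 of Hsp90aa1) did not, with signals of 5.79 to 69.3 in all arrays. By limma over 28754 kept probe sets, 10 of the 21 were lower in G-MDSC and 1 was higher. Of all kept probe sets 4.31% were called lower and 3.72% higher, 8.03% in all. The groups were separate in 20 of the 21, with 17 lower and 3 higher, against 54.6% of all kept probe sets, 30.8% lower and 23.7% higher. Of the 21, 2 were dim in both arrays of a group and had passed the filter only through the group where they were high, 1423566_a_at of Hsph1 (called lower) and 1433251_at of Hsp90aa1 (not called). Of the other 19, 9 were called lower and 1 higher, and 16 were separate and lower and 2 separate and higher. Among the 11 called probe sets, those that represent their gene have its difference by construction, and they had its call too. The others were lower, like their genes. They were 1420622_a_at and 1455789_x_at of Hspa8, 1418503_at of Hspa9, 1422579_at of Hspe1 and the dim 1423566_a_at of Hsph1. The median difference of the 21 was -1.30, against -0.20 over all kept probe sets. By point estimate 18 were lower and 3 higher, the 2 of Dnajb1 and the dim one of Hsp90aa1. The number lower fell to 5 without G-MDSC replicate 2, and the number higher was 0 without either G-MDSC array and 2 without neutrophils replicate 1.

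**Figure D2:**
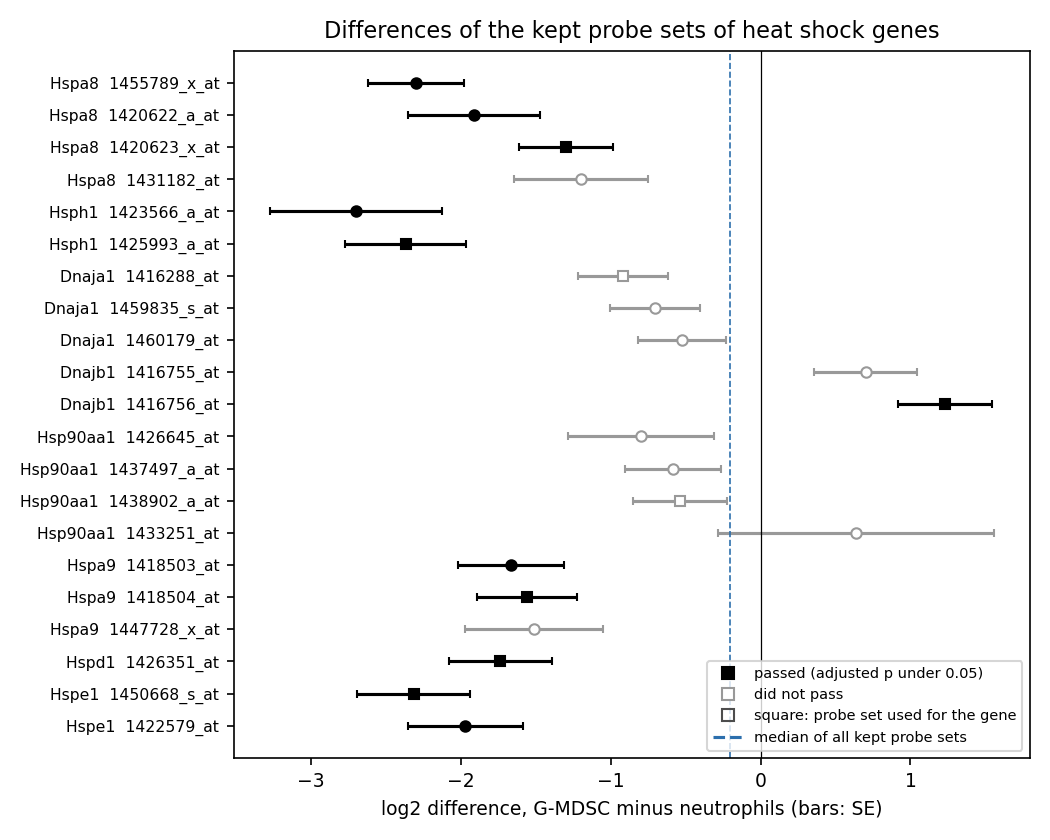
Log2 difference (G-MDSC minus neutrophils, bars are SE) of the 21 kept probe sets of heat shock genes, filled where the adjusted p was under 0.05 and square where the probe set represents its gene; the dashed line is the median of all kept probe sets. The 10 filled points on the left belong to Hspa8, Hsph1, Hspa9, Hspd1 and Hspe1, and the 1 on the right to Dnajb1.

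Partners of these chaperones were read from 9 lists. Of 87 listed genes, 84 had a probe set with 1 symbol and 79 were tested. Of these, 4 were higher (5.06%) and 15 lower (19.0%) in G-MDSC, against 8.3% and 8.05% of all genes, and 7 of the 15 were subunits of one complex, TRiC. Of the 71 partners outside TRiC, 8 were lower (11.3%), near the share of all genes. Without neutrophils replicate 1 the numbers were 8 and 26. They were 7 and 18 without neutrophils replicate 2, 2 and 6 without G-MDSC replicate 1, and 0 and 3 without G-MDSC replicate 2. Of the 14 genes named from these lists, Cct3 and Cct8 passed with each array left out, though not with median scaling (adjusted p = 0.115 and 0.316), and the other 12 lost their call in at least 1 such fit.

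TRiC, the cytosolic barrel of 8 different subunits that folds actin and tubulin, was lower in G-MDSC in nearly every subunit. Of 8 subunit genes 7 fell and 0 rose, against 8.05% and 8.3% of all genes. Their median difference was -1.35, against -0.18 over all genes. Cct3 read 1609 and 1213 (G-MDSC) against 7500 and 8074 (neutrophils), a log2 difference of -2.46 ± 0.30 (SE of 2 against 2 arrays; limma adjusted p = 0.000416). That value rests on the probe set: with probe sets without a suffix Cct3 was at -0.27 (adjusted p = 0.814). Cct8 read 1185 and 1294 against 4663 and 4639, a difference of -1.90 ± 0.29 (limma adjusted p = 0.00158). Tcp1, Cct6a, Cct5, Cct4 and Cct2 fell by 1.70, 1.55, 1.15, 1.09 and 1.09. Cct7, at 3824 and 2864 against 4159 and 4668, did not pass (-0.41 ± 0.30). The number that fell was 4 without G-MDSC replicate 1, 2 without G-MDSC replicate 2 and 7 without either neutrophil array. It was 2 of 6 with probe sets without a suffix only, 2 without the intensity trend and 0 with median scaling.

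Of 31 tested genes in the 3 lists that serve Hsp70, 3 were called in either direction (9.68%), against 16.4% of all genes. Among 15 further J proteins, 1 fell and 0 rose. That gene was Dnaja3, a mitochondrial J protein that works with Hspa9, at 221 and 282 (G-MDSC) against 507.2 and 824 (neutrophils), a log2 difference of -1.32 ± 0.38 (SE of 2 against 2 arrays; limma adjusted p = 0.0355). Among 9 exchange factors and cofactors 1 fell, Hspbp1, which releases nucleotide from Hsp70 (-1.64 ± 0.38). Bag3, a partner of Hsp70 that responds to heat, did not pass (-0.60 ± 0.40). Of 7 other Hsp70 and Hsp110 genes tested, 1 rose, Hspa2, an Hsp70 known from the testis, at 583.8 and 854.2 (G-MDSC) against 253.6 and 200.8 (neutrophils) (1.58 ± 0.37). The calls of Dnaja3 and Hspa2 did not survive leaving out G-MDSC replicate 1 (adjusted p = 0.334 and 0.0692) or G-MDSC replicate 2 (0.137 and 0.299), and that of Hspbp1 did not survive leaving out the latter (0.214).

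The heat-inducible Hsp70 genes Hspa1a and Hspa1b, named here after their values were seen, did not pass. Hspa1a read 612 and 1061 (G-MDSC) against 657 and 612 (neutrophils), and Hspa1b read 1044 and 1407 against 1318 and 1222. The groups overlapped in both, and the log2 differences were 0.34 ± 0.36 and -0.06 ± 0.32 (SE, n = 2 per group). The 2 genes are near-identical copies, so their probe sets may share transcripts.

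Of 12 partners of Hsp90 tested, 2 rose and 2 fell, against 8.3% and 8.05% of all genes. The list median was -0.21, close to -0.18 over all genes. Fkbp5, which holds steroid receptors in an inactive state, read 4685 and 5377 (G-MDSC) against 3001 and 1192 (neutrophils), 2.64-fold higher with an SE of 0.41 on the log2 scale (n = 2 per group; limma adjusted p = 0.0369). Ahsa1, which speeds the ATP cycle of Hsp90, rose by 0.94 ± 0.29 (limma adjusted p = 0.0497). Stip1, the bridge between Hsp70 and Hsp90, fell by 1.17 on that scale and Chordc1 by 1.04. Without G-MDSC replicate 1 the calls of Ahsa1, Stip1 and Chordc1 were lost (adjusted p = 0.274, 0.191 and 0.125). Without G-MDSC replicate 2 all 4 were lost (0.106 for Fkbp5, 0.404 for Ahsa1, 0.274 for Stip1 and 0.487 for Chordc1). Fkbp5 was at 0.74 without neutrophils replicate 2 (0.069) and at 2.06 without neutrophils replicate 1.

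Of 12 other mitochondrial chaperone, import and protease genes, 2 fell and 0 rose, against 8.05% and 8.3% of all genes. Trap1, the mitochondrial Hsp90, read 284.6 and 149.4 (G-MDSC) against 607.9 and 784.3 (neutrophils), a log2 difference of -1.66 ± 0.40 (SE of 2 against 2 arrays; limma adjusted p = 0.0157). The import receptor Tomm70a fell by 1.01. The list median was -0.22, close to that of all genes. Grpel1, the exchange factor of Hspa9, and the matrix protease Lonp1 were at -0.08 and -0.16 and did not pass. Trap1 lost its call without G-MDSC replicate 2 (adjusted p = 0.25), and Tomm70a without either G-MDSC array (0.369 and 0.333).

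The remaining lists held 1 call each. Hspb1, a small heat shock protein, read 14.9 and 159.9 (G-MDSC) against 430.6 and 665.4 (neutrophils), a log2 difference of -2.90 ± 0.70 (SE of 2 against 2 arrays; limma adjusted p = 0.0157). The G-MDSC arrays were far apart, and the difference was -1.65 without G-MDSC replicate 1 (adjusted p = 0.122) and -4.16 without G-MDSC replicate 2. Pfdn4, a prefoldin subunit, fell by 1.29, which did not pass without either G-MDSC array (0.121 and 0.217). Dedd2, a nuclear death effector domain protein, rose by 1.57, which did not pass without G-MDSC replicate 2 (0.201). The heat shock factors tested, Hsf2 and Hsf4, were at -1.01 and -1.06 and did not pass.

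**Figure D3:**
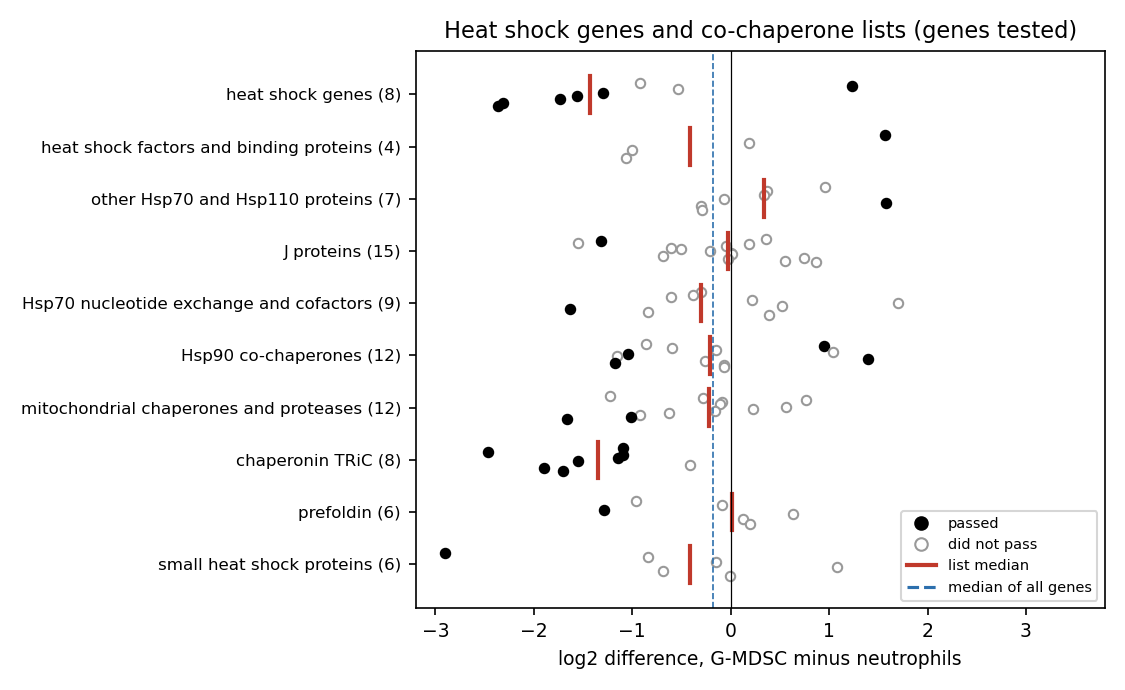
Log2 difference (G-MDSC minus neutrophils) of each tested gene in the heat shock group and in 9 lists of partner genes, filled where the adjusted p was under 0.05, with the number tested in brackets, a red bar at each list median and a dashed line at the median of all genes. Medians of -1.43 for the heat shock genes and -1.35 for TRiC lie left of the other list medians.

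Markers of other cells differed between the groups mainly in the macrophage and mast cell lists. Tested were 52 markers of macrophages, mast cells, B, T and NK cells, erythroid cells, eosinophils and dendritic cells. Of these, 16 were lower and 3 higher in G-MDSC, against 8.05% and 8.3% of all genes. Of 13 macrophage markers 10 were lower, and their summed signal was 5736 to 5862 in G-MDSC and 29166 to 48376 in neutrophils. Adgre1 encodes F4/80, the antigen by which the neutrophils had been depleted. It read 816.9 and 643.1 (G-MDSC) against 4847 and 7136 (neutrophils). Of 9 mast cell markers 5 were lower, 3 of which (Cma1, Mcpt4 and Tpsb2) had passed the filter on low signals only through the neutrophil arrays, with sums of 18088 to 21718 against 30521 to 40620. These 3 were near the bottom of the scale in G-MDSC, at 4.79 to 17.7, and at 394.6 to 4591 in neutrophils. Most of the sums came from Hdc, at 15256 and 18052 (G-MDSC) against 24350 and 24016 (neutrophils), which did not pass. Kit alone of the 9 lay the other way, at 2003 and 3146 against 1551 and 417. Its log2 difference of 1.62 ± 0.51 did not pass. Of 9 B and plasma cell markers 2, Jchain and Igha, were higher, and of 6 T and NK cell markers 1, Nkg7. Of 6 erythroid and 3 eosinophil markers 0 passed by limma, with 0 and 1 at an unadjusted p under 0.05, and of 6 dendritic cell markers 1 was lower. The primary granule gene Mpo, a sign of immature granulocytes, read 8580 and 3980 (G-MDSC) against 149.6 and 156.5 (neutrophils). The part of these cells and of maturity in the heat shock differences was not tested.

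The direction of the members held more widely than their calls. Under 16 alternative settings the sign turned in 1 case, Hsp90aa1 with median scaling. Most of these settings could not turn it. The variance models and the replicate block leave differences as they are, and the filters kept the same probe sets. As the arrays of the groups did not overlap, other pseudocounts, the floor and leaving out 1 array could not turn a sign either. In all 16, Dnajb1 was the only member above the median gene of that setting. Median scaling moves all genes alike, and the variance models and the replicate block move none, so these settings could not change that. Median scaling moved the median gene from -0.18 to 0.38. With it 1078 genes were higher and 453 lower, against 1091 and 1058 as reported, and Hsph1 alone of the members passed (-1.81, adjusted p = 0.00987). Without the intensity trend Hsph1 was likewise the only member called (adjusted p = 0.0429). Without moderation of the variance, 0 members and 0 genes passed by limma, with 7 members and 2379 genes at an unadjusted p under 0.05. With a floor for low signals 0 passed, with 7 members and 3230 genes at an unadjusted p under 0.05.

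**Figure D4:**
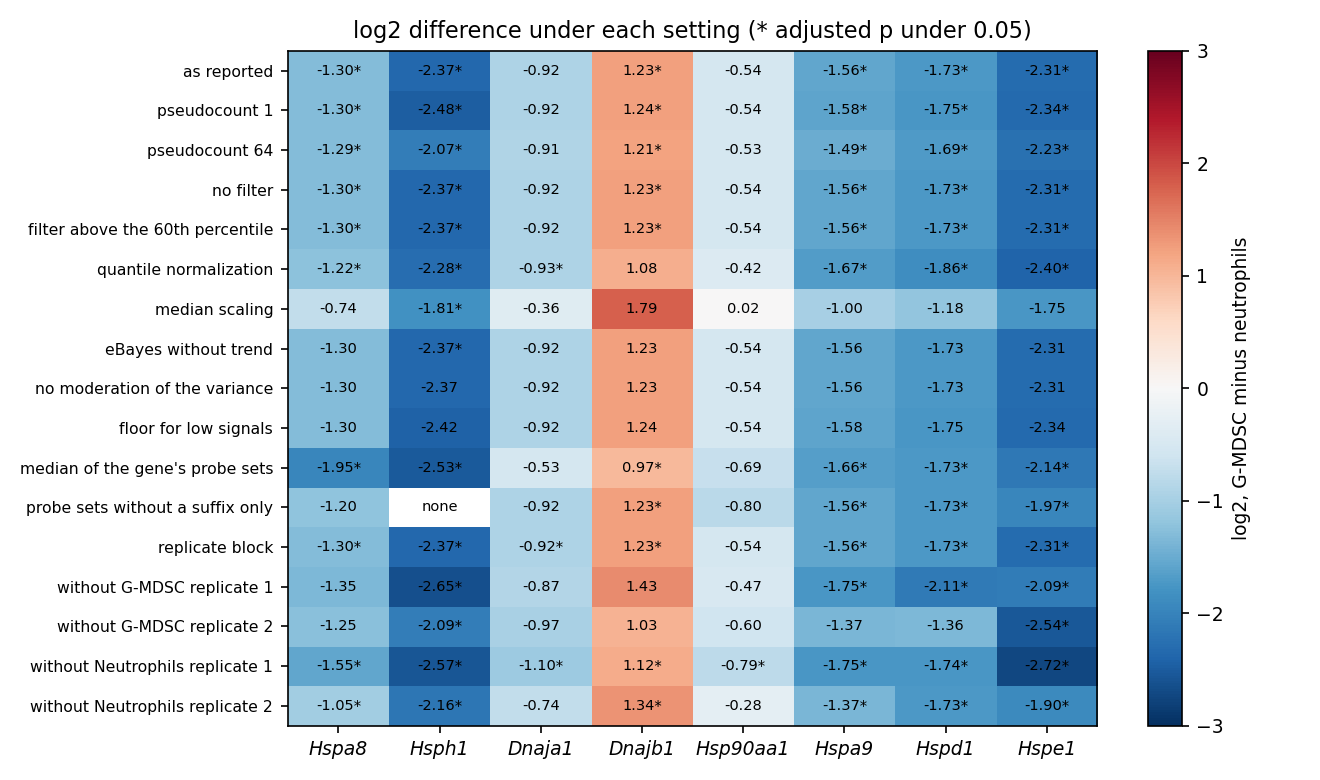
Log2 difference (G-MDSC minus neutrophils) of each heat shock gene as reported and under 16 alternative settings, with a star where the adjusted p was under 0.05; blue cells are lower and red cells higher in G-MDSC. Dnajb1 is red in every row, from 0.97 to 1.79, and Hsph1 has no value where probe sets with a suffix are left out.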

How the data were processed

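Total RNA of 2 G-MDSC and 2 neutrophil samples was labelled from 100 ng. The authors deposited 1 signal intensity per probe set and array, for which the submitters' processing notes name GCOS 1.4 and MAS5. The deposited intensity values have a mean of 500 in each array after removal of the top and bottom 2%, which shows scaling to a common mean; MAS5 compares matched and mismatched probes, which makes low signals noisy. Precision is limited by the number of arrays. Of 45101 probe sets, 34945 had 1 symbol, 932 had several and were not named, 9160 had none and 64 were controls. The annotation's gene IDs matched the RefSeq table of GRCm38.p6 for 34741, and 0 symbols changed.

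Tests used limma 3.58.1 under R 4.3.3, and tables and plots Python 3.11.15 (matplotlib 3.10.9, numpy 2.4.6, pandas 2.3.3). Probe sets above the 40th percentile of their array in at least 2 of 4 arrays were kept (28754), and the brightest kept one on average stood for its gene (13139 genes). On log2(signal + 16), the limma functions lmFit and eBayes (trend on intensity) gave two-sided p-values, adjusted by Benjamini-Hochberg over all features, with a threshold of 0.05. The SEs come from the same moderated variances. Folds come from the same scale and are too small for dim genes. No exact permutation test was run, as 0.333 is the smallest p it allows with 2 arrays a side.

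The members and gene lists were chosen with earlier results of these data known. Named were all members with their probe sets, up to 2 called genes per direction of each partner list, and Itgam, S100a8, S100a9, Adgre1 and Mpo. The other TRiC subunits, Hsf2, Hsf4, Bag3, Grpel1, Lonp1 and the remaining markers were named after their values were seen. Of 11 neutrophil markers tested 4 were higher in G-MDSC by limma, against 8.3% of all genes. Itgam (-0.08 ± 0.31), S100a8 (-0.31 ± 0.34) and S100a9 (-0.45 ± 0.34) were among the 7 that did not pass. Alternatives were other pseudocounts (1 and 64), filters (none and the 60th percentile), scalings, variance models, a floor at the highest 40th percentile of the 4 arrays, a replicate block, other choices of probe set, and each array left out with the probe sets held fixed.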

Additional observations from a re-analysis of the deposited data

How the results depend on the processing

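Calls depended on the variance model and on single arrays, which could not turn the sign of any heat shock gene tested. As reported, G-MDSC had 1091 genes higher and 1058 lower, with 1 and 5 heat shock genes, 1 and 10 heat shock probe sets, 4 and 15 partner genes and 3 and 16 markers of other cells. Other pseudocounts and filters left these counts within 1.5 times. Without the intensity trend they were 148 and 331 genes, 0 and 1 heat shock genes, 0 and 0 probe sets, 0 and 2 partners and 10 markers lower. Without moderation, and likewise with the floor, 0 were called in either direction by limma in each of these sets, with 2379 and 3230 genes at an unadjusted p under 0.05. Median scaling gave 453 genes lower, 0 heat shock genes higher and 1 lower, 0 and 1 probe sets, 1 partner lower and 6 markers higher, and Hsp90aa1 turned to 0.022. Quantile normalization gave 0 heat shock genes and 0 probe sets higher and 1 partner higher. With the median of probe sets 2 partners were higher. With probe sets without a suffix 3 heat shock genes and 7 partners were lower and 1 marker was higher, out of fewer genes tested (11532). The cause of the other shifts was not tested.

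The replicate block gave 1699 and 1607 genes and 6 markers higher, with 1 and 6 heat shock genes, 1 and 13 probe sets and 6 and 19 partners. Same-numbered arrays deviated from their group means with a correlation of 0.240 across genes, but with 1 such value and no label of a shared origin the samples share only a number. With 1 array left out, the lone array is assumed to vary like the other group. Then 429 to 2419 genes rose and 561 to 3472 fell, 0 to 1 heat shock genes higher and 2 to 7 lower, 0 to 2 probe sets higher and 5 to 12 lower, 0 to 8 partners higher and 3 to 26 lower, and 3 to 7 markers higher and 15 to 22 lower. Of the values of single heat shock genes under the alternatives, 92 kept their side of the threshold, 30 lost and 4 gained a call and 1 turned, and those of named partners were 129 kept and 92 lost. Probe sets below the 40th percentile have only bounds.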
